A study of Homo sapiens with 6 samples.

Results

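LNCaP, an established androgen-responsive human prostate cancer line, received small interfering RNA (siRNA) against the non-coding RNA PCARNEQ or, as the control, siRNA against EGFP, a jellyfish-derived fluorescent protein absent from human cells. Total RNA of each group was measured on 3 single-colour Affymetrix arrays, numbered 1 to 3 in siPCARNEQ and 1 to 3 in siEGFP as in the labels. Both groups share the cell line and an siRNA treatment, and the labels name no separate cultures, so the spread between arrays of a group may be technical. Described here are the 43 genes, of 19775 measured, that lay lowest in siPCARNEQ relative to siEGFP: each had a mean log2 difference (siPCARNEQ minus siEGFP, as all changes below) of -2 or less, which is at least 4-fold, and all 3 siPCARNEQ values below all 3 siEGFP values. Each gene was read from its brightest single-gene probe set, by the mean of the 6 arrays, and 10 further genes that met the same limits (E2F5, E2F7, MBNL3, NXT2, GNAI1, QSER1, PAQR3, GINS1, ZMAT3 and UGT2B28) were left out by the rule.

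The same values that are compared here chose the members, so changes of members are given as a description without a test. Of all genes, 53 (0.268%) met both limits, and in 21.7% all siPCARNEQ values lay below all siEGFP values. The changes ran from -2.81 to -2.005 with a median of -2.18, against a median of -0.01 over all genes. Standard errors (SE, from the limma fit over all genes, n = 3 arrays per group) ran from 0.07 to 0.64, and 30 members had an SE of at most 0.2. Just inside the limit lay DENND6A (-2.005), TMTC2 (-2.01) and DENND1B (-2.02), and just outside it lay LYSMD2 (-1.998), HSPA13 (-1.99) and ZDHHC21 (-1.97), all without overlap between groups. In RNA from a whole culture, fewer cells of a kind and less RNA per cell cannot be told apart.

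All arrays had a median log2 intensity of 7.03. Array 1 stood apart in both groups. Over all probe sets, arrays 2 and 3 differed in log2 with an SD of 0.136 in siPCARNEQ and 0.129 in siEGFP, while array 1 differed from the others with an SD of 0.371 to 0.373 in siPCARNEQ and 0.232 to 0.239 in siEGFP. RNA integrity was read from the ACTB controls as the 3' minus the 5' log2 level, which came to 1.84 in siPCARNEQ array 1, against 0.68 to 0.69 in siPCARNEQ arrays 2 and 3 and 0.63 to 0.78 in the siEGFP arrays. Of the luminal prostate markers, 10 of 12 were measured, and all 10 lay above the array median in both groups, with a median level of 12.96 in siPCARNEQ and 12.05 in siEGFP. Of 3 measured basal markers, 0 lay above it in siPCARNEQ and 1 in siEGFP. Of 5 fibroblast and smooth muscle markers, 3 lay above it in siPCARNEQ and 4 in siEGFP, and of 5 immune and endothelial markers 2 in siPCARNEQ and 3 in siEGFP. The array median is no detection limit, and the part of other cell types in the results was not tested. The level of PCARNEQ was not analysed here.

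By their known roles, the members spread over many parts of the cell. The endoplasmic reticulum (ER) makes and modifies membrane and secreted proteins and lipids, and p24 receptors, clathrin adaptors and RAB GTPases carry its products onward. Peroxisomes break down special fatty acids, the nuclear pore and kinetochore serve nuclear transport and chromosome segregation, and monocarboxylate transporters move lactate and pyruvate. In this sorting, made after the members were known, 8 members act in the ER, in lipid or glycan processing or in protein acylation, 4 in membrane traffic, 7 in transport or at the cell surface, and 2 in peroxisomes. A further 9 act in the nucleus or in cell division, 4 in metabolism, mitochondria or tRNA quality control, 1 is a ribosomal RNA precursor, and 8 have other or poorly known roles. All members but this ribosomal RNA, 42 of 43, are protein-coding.

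Promoters are shown first, as a feature that the rule did not use and that could be compared with all genes. Of the 43 members, 34 had an entry among the RefSeq promoters (GRCh38.p14), and the 250 bases before the annotated start were searched on both strands. GC content had a median of 68.4% in member promoters and 62.4% over the 15382 promoters of measured genes. It was 64.8% in promoters of genes with an siEGFP level of 10.27 or more (bright genes below), where most members lay. At least 10 CG dinucleotides were present in 30 of the 34 (88.2%), against 69.3% of all promoters and 90.8% of those of bright genes. The 6 promoters below were chosen to show this range: the pair TMTC3 and TMTC2 (chr12:88142057-88142306 and chr12:82686656-82686905), the peroxisomal pair ABCD3 and ACBD5 (chr1:94418139-94418388 and chr10:27240880-27241129), SLC16A7 (chr12:59689120-59689369) as the one with the fewest CG dinucleotides, and MTR (chr1:236795031-236795280) as the one with an E2F match. All lie on the plus strand except ACBD5, on the minus strand, and each is written in the direction of its gene, with motif matches in capitals.
TMTC3: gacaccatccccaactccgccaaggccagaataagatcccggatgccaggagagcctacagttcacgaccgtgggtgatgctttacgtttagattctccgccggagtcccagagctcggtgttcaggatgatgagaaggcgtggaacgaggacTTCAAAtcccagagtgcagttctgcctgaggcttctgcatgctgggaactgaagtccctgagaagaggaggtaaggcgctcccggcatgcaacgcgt
TMTC2: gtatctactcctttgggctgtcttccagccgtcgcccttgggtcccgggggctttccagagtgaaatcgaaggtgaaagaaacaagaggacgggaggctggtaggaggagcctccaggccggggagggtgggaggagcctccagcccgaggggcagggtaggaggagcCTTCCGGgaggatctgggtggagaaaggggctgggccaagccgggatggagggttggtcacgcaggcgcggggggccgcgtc
ABCD3: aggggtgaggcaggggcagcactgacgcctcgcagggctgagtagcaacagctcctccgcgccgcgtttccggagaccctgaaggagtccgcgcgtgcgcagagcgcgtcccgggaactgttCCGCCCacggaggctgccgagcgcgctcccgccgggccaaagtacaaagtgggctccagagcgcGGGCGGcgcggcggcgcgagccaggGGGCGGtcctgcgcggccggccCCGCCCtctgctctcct
ACBD5: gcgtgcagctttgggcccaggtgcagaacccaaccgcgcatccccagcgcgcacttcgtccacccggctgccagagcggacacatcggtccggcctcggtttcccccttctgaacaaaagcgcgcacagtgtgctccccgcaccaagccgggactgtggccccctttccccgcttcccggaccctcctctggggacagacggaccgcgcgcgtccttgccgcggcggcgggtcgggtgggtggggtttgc
SLC16A7: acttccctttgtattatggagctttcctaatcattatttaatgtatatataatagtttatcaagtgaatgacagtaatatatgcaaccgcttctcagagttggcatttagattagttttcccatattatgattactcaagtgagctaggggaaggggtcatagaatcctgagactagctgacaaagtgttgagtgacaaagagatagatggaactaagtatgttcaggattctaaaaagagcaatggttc
MTR: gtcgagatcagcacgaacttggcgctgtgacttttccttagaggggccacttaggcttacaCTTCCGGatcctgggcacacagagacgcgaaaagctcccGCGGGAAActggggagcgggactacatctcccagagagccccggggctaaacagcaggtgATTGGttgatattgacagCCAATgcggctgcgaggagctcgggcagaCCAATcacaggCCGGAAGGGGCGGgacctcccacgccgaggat
The capitals mark a CHR match in TMTC3, an ETS match in TMTC2, GC boxes in ABCD3, and in MTR matches of E2F, NF-Y, ETS and the GC box. SLC16A7, with 1 CG dinucleotide and a GC content of 35.2%, and ACBD5, with 27 and 70.4%, had no match.

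The motifs searched were TTTGGCGC, TTTCCCGC and TTTGGCGG for E2F, CCAAT for NF-Y, TTTGAA for CHR (the cell cycle genes homology region), CACGTG for the E-box, GGGCGG for the GC box, AGAACA for the androgen receptor motif, TATAAA for the TATA box, CCGGAAG for ETS, TGACGTCA for CRE, AAGATGGCG for YY1 and the palindromic NRF1 motif, and matches of different motifs were allowed to overlap. The GC box was present in 23 of 34 member promoters (67.6%), against 56.3% of all promoters and 68.7% of those of bright genes. NF-Y letters were in 8 (23.5%), against 34.1% of all and 38.0% of bright genes. ETS letters were in 6 (17.6%), against 12.02% of all and 20.03% of bright genes. E2F letters were in MTR alone (2.94%), against 3.24% of all and 4.65% of bright genes. The E-box was in 3 (8.82%), against 7.83% of all and 9.92% of bright genes. CHR and the androgen receptor motif were in 2 each (5.88%), against 10.6% and 9.35% of all and 8.54% and 7.33% of bright genes. TATA box letters, searched over the whole window, were in LRRC58 alone (2.94%), 213 bases before the start, against 8.31% of all and 4.84% of bright genes. CRE, YY1 and NRF1 letters were in no member promoter, against 2.38%, 0.793% and 1.502% of all and 3.87%, 1.21% and 2.68% of bright genes. No motif searched was thus common to the members, and the most frequent one had about the share seen in genes of high siEGFP level. A match is a description of letters in this window and says nothing of binding.

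**Figure D1:**
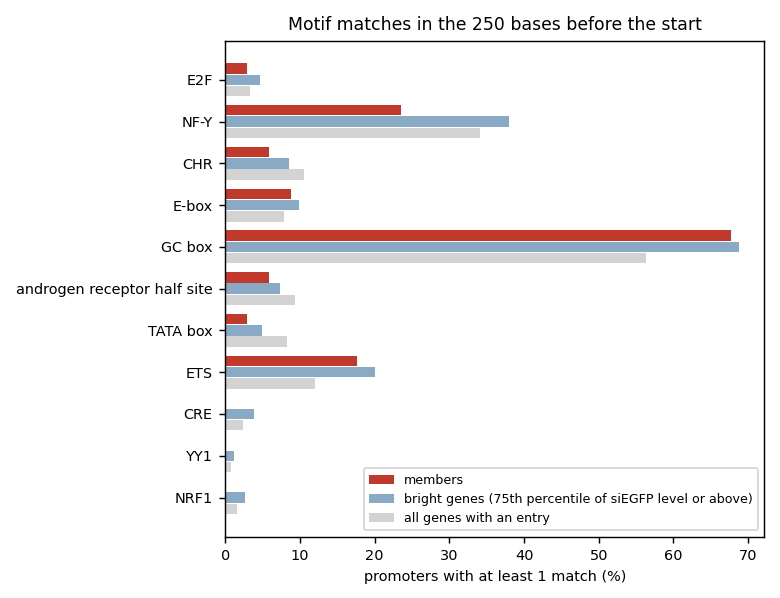
Share of promoters, in percent, with at least 1 match of each motif on either strand in the 250 bases before the start, for 34 members, for bright genes (siEGFP level of 10.27 or more) and for all 15382 promoters. The GC box is the most frequent in all 3 sets, at 67.6% of member promoters, 68.7% of those of bright genes and 56.3% of all.

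Members of the ER and of lipid and glycan processing had changes from -2.74 to -2.01, with a median of -2.32 over 8 genes. TMTC3, an ER enzyme that attaches O-linked mannose to cadherins, had log2 intensities of 7.28, 7.79 and 7.76 in siPCARNEQ arrays 1 to 3 and 10.41, 10.30 and 10.34 in siEGFP arrays 1 to 3, a change of -2.74 (SE 0.14). TMTC2, a second enzyme of this family, lay at 7.73, 7.93 and 7.62 in siPCARNEQ arrays 1 to 3 and 9.55, 9.90 and 9.88 in siEGFP arrays 1 to 3, a change of -2.01 (SE 0.12). In both genes every other probe set was lower as well, at -2.45 and -1.38 for TMTC3 and -2.05 for TMTC2, and TMTC2 was 1 of the 2 members with a smaller difference in array 1 (-1.82) than in arrays 2 and 3 (-2.11). REEP3, which shapes ER tubules and clears the ER from mitotic chromosomes, lay at 8.86, 9.47 and 9.35 in siPCARNEQ arrays 1 to 3 and 11.82, 12.05 and 11.86 in siEGFP arrays 1 to 3, a change of -2.68 (SE 0.16), and its other probe set was at -2.55. TMED5, a p24 receptor that carries cargo from the ER to the Golgi, was among the brightest members at 9.90, 10.83 and 10.82 in siPCARNEQ arrays 1 to 3 and 12.91, 12.998 and 13.06 in siEGFP arrays 1 to 3, a change of -2.47 (SE 0.24). Its 5 other probe sets split into a pair at -2.02 and -2.15, whose means lay above the array median, and 3 dim ones between -0.31 and 0.03.

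ZDHHC20, which attaches palmitate to proteins, lay at 9.39, 10.33 and 10.13 in siPCARNEQ arrays 1 to 3 and 11.86, 12.33 and 12.45 in siEGFP arrays 1 to 3, a change of -2.27 (SE 0.26). VMA21, an ER chaperone for assembly of the proton pump V-ATPase, lay at 9.90, 10.20 and 10.22 in siPCARNEQ arrays 1 to 3 and 12.43, 12.33 and 12.42 in siEGFP arrays 1 to 3, a change of -2.29 (SE 0.10). In VMA21 the arrays of each group lay close together and its 2 dim other probe sets were at -1.89 and -0.01, and in ZDHHC20 array 1 was the lowest of its group in both groups. PGAP1, which trims the lipid anchor of GPI-linked proteins, lay at 4.85, 5.36 and 5.47 in siPCARNEQ arrays 1 to 3 and 7.66, 7.48 and 7.58 in siEGFP arrays 1 to 3, a change of -2.35 (SE 0.16). All siPCARNEQ values of PGAP1 were under the array median, a range in which signal and background were not separated and the size of a change is uncertain. Its 4 other probe sets were dim in both groups, with changes of -0.86 to -0.08. SGPP1, the ER phosphatase that removes the phosphate of sphingosine-1-phosphate, averaged 9.77 ± 0.54 in siPCARNEQ and 11.91 ± 0.22 in siEGFP (SD, n = 3), a change of -2.14 (SE 0.26), with -2.21 in its other probe set.

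Transporters and surface proteins included a known pair. SLC16A7 encodes the monocarboxylate transporter MCT2, and EMB encodes embigin, a membrane glycoprotein known in rat as the partner that carries MCT2 to the cell surface. EMB lay at 8.81, 9.04 and 8.98 in siPCARNEQ arrays 1 to 3 and 11.60, 11.61 and 11.64 in siEGFP arrays 1 to 3, a change of -2.67 (SE 0.08). SLC16A7 lay at 8.12, 8.27 and 8.16 in siPCARNEQ arrays 1 to 3 and 10.56, 10.38 and 10.28 in siEGFP arrays 1 to 3, a change of -2.22 (SE 0.09). In both genes the arrays of a group lay close together, and the lowest siEGFP value exceeded the highest siPCARNEQ value by 2.56 in EMB and 2.01 in SLC16A7. The 4 other probe sets of SLC16A7 ran from -2.73 to -2.07, and that of EMB was at -2.53.

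SLC44A1, a choline transporter, lay at 8.91, 9.24 and 9.11 in siPCARNEQ arrays 1 to 3 and 11.71, 11.59 and 11.58 in siEGFP arrays 1 to 3, a change of -2.54 (SE 0.10). Its 5 other probe sets ranged from -2.35 to 0.24, and the one at 0.24 had a mean of 7.23 in siPCARNEQ and 6.996 in siEGFP. TMEM100, a membrane protein known from mouse endothelium as a target of bone morphogenetic protein signalling, lay at 5.15, 5.13 and 5.50 in siPCARNEQ arrays 1 to 3 and 6.16, 8.57 and 8.58 in siEGFP arrays 1 to 3, a change of -2.51 (SE 0.61). The groups of TMEM100 were separated by only 0.66, the smallest gap among members. Its siEGFP array 1 lay far below siEGFP arrays 2 and 3, and every siPCARNEQ value was below the array median. FLRT2, a cell surface ligand in axon guidance, lay at 5.16, 6.90 and 7.06 in siPCARNEQ arrays 1 to 3 and 8.53, 8.38 and 8.69 in siEGFP arrays 1 to 3, a change of -2.16 (SE 0.46). Its siPCARNEQ array 1 lay well below the other siPCARNEQ arrays, with a difference of -3.37 in array 1 and -1.56 in arrays 2 and 3, and its 2 other probe sets were at -1.29 and -0.22. CLDND1, a claudin-like membrane protein, lay at 8.49, 8.95 and 8.91 in siPCARNEQ arrays 1 to 3 and 10.85, 10.85 and 10.83 in siEGFP arrays 1 to 3, a change of -2.06 (SE 0.12). A second bright probe set of CLDND1 was at -2.57, and 2 dim ones were at 0.03. GNG12, a gamma subunit of heterotrimeric G proteins, averaged 9.33 ± 0.35 in siPCARNEQ and 11.46 ± 0.04 in siEGFP (SD, n = 3), a change of -2.14 (SE 0.16), with -2.12 and -1.83 in its other probe sets.

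Membrane traffic was represented by 4 members. AP1S3, a small subunit of the clathrin adaptor AP-1, lay at 6.34, 8.30 and 8.26 in siPCARNEQ arrays 1 to 3 and 9.73, 10.23 and 10.27 in siEGFP arrays 1 to 3, a change of -2.44 (SE 0.50). Its siPCARNEQ array 1 lay far below the other siPCARNEQ arrays, and 3 other probe sets were at -2.40, -2.22 and -2.04, with a dim one at -0.52. RBSN, an endosomal effector of RAB GTPases, lay at 8.72, 9.16 and 9.14 in siPCARNEQ arrays 1 to 3 and 11.08, 11.10 and 11.15 in siEGFP arrays 1 to 3, a change of -2.10 (SE 0.12). The 2 other probe sets of RBSN, both above the array median, had changes of -0.38 and -0.11. DENND1B and DENND6A activate RAB GTPases by exchanging their nucleotide. DENND1B lay at 8.31, 8.64 and 8.64 in siPCARNEQ arrays 1 to 3 and 10.52, 10.51 and 10.63 in siEGFP arrays 1 to 3, a change of -2.02 (SE 0.10). DENND6A, nearest to the limit and with the smallest SE, lay at 10.01, 9.95 and 9.94 in siPCARNEQ arrays 1 to 3 and 12.07, 11.90 and 11.95 in siEGFP arrays 1 to 3, a change of -2.005 (SE 0.07). DENND6A had 1 probe set, while the 5 others of DENND1B ran from -2.14 to 0.41, the last with 8.33 in siPCARNEQ and 7.92 in siEGFP.

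The peroxisomal members were ABCD3, a transporter that brings acyl-CoA into peroxisomes, and ACBD5, a membrane protein that binds very-long-chain acyl-CoA and tethers peroxisomes to the ER. ABCD3 averaged 9.82 ± 0.34 in siPCARNEQ and 11.85 ± 0.15 in siEGFP (SD, n = 3), a change of -2.02 (SE 0.17). ACBD5 averaged 9.16 ± 0.20 in siPCARNEQ and 11.25 ± 0.08 in siEGFP (SD, n = 3), a change of -2.10 (SE 0.11). Their other probe sets were at -1.88 and -1.02. Of 14 measured peroxins, the PEX proteins that build the organelle, 0 fell, 2 rose and 12 did not pass at an adjusted p under 0.05 in limma's fit over all genes, with 0 lower and 5 higher at an unadjusted p under 0.05 and changes from -0.26 to 0.65. Over all genes 12.3% fell and 15.2% rose at the adjusted threshold. The share of all genes at an unadjusted p under 0.05 was not taken. Counts at an unadjusted p, here and below, therefore cannot be read against a background.

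Nuclear and cell division members ran from -2.60 to -2.02. NDC1, a membrane protein that anchors the nuclear pore complex, lay at 8.94, 9.39 and 9.51 in siPCARNEQ arrays 1 to 3 and 11.87, 11.90 and 11.88 in siEGFP arrays 1 to 3, a change of -2.60 (SE 0.14), with -2.74 in its other probe set. PBK, a kinase active in mitosis, was one of the brightest members at 9.71, 11.08 and 11.02 in siPCARNEQ arrays 1 to 3 and 12.89, 13.29 and 13.37 in siEGFP arrays 1 to 3, a change of -2.58 (SE 0.35). In PBK array 1 was the lowest of its group on both sides. SKA2, part of the complex that links kinetochores to microtubules, lay at 9.56, 9.59 and 9.62 in siPCARNEQ arrays 1 to 3 and 11.84, 11.68 and 11.65 in siEGFP arrays 1 to 3, a change of -2.13 (SE 0.08). The 3 siPCARNEQ values of SKA2 nearly coincided, but its other probe set, bright at 9.97 in siPCARNEQ and 10.45 in siEGFP, had a change of -0.48. DSCC1, a subunit of the CTF18 clamp loader that acts in sister chromatid cohesion, lay at 8.38, 8.72 and 8.82 in siPCARNEQ arrays 1 to 3 and 10.46, 10.73 and 10.80 in siEGFP arrays 1 to 3, a change of -2.02 (SE 0.14), and its other probe set was at -0.01 near the array median. POLE3, a histone-fold subunit of DNA polymerase epsilon, averaged 9.96 ± 0.33 in siPCARNEQ and 12.05 ± 0.08 in siEGFP (SD, n = 3), a change of -2.08 (SE 0.16), from its single probe set.

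CCSAP, a protein of centrioles, cilia and the spindle, lay at 8.78, 9.55 and 9.56 in siPCARNEQ arrays 1 to 3 and 11.36, 11.49 and 11.53 in siEGFP arrays 1 to 3, a change of -2.16 (SE 0.21). Its 3 other probe sets were dim, at -1.49, -1.14 and 0.10. ELK3, an ETS family transcription factor, lay at 4.22, 5.17 and 5.09 in siPCARNEQ arrays 1 to 3 and 7.15, 7.23 and 7.32 in siEGFP arrays 1 to 3, a change of -2.40 (SE 0.24). KBTBD8, an adaptor of a cullin ubiquitin ligase, lay at 6.68, 6.97 and 6.72 in siPCARNEQ arrays 1 to 3 and 9.11, 9.19 and 9.21 in siEGFP arrays 1 to 3, a change of -2.38 (SE 0.09). Every siPCARNEQ value of ELK3 and KBTBD8 was below the array median, and the other probe set of ELK3 was dim in both groups (5.49 in siPCARNEQ and 5.45 in siEGFP). SCML1, a relative of a Polycomb group protein, averaged 9.61 ± 0.11 in siPCARNEQ and 11.79 ± 0.05 in siEGFP (SD, n = 3), a change of -2.19 (SE 0.08), with -2.11 in its other probe set.

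DTD2 had the largest difference of all members. It encodes a deacylase that clears wrongly charged transfer RNA, and it lay at 8.77, 9.17 and 9.09 in siPCARNEQ arrays 1 to 3 and 11.87, 11.81 and 11.78 in siEGFP arrays 1 to 3, a change of -2.81 (SE 0.11), or 7.02-fold lower in siPCARNEQ. The siEGFP values of DTD2 nearly coincided, and its other probe set was at -2.20. MTR, the methionine synthase that joins the folate and methionine cycles, lay at 8.95, 9.30 and 9.15 in siPCARNEQ arrays 1 to 3 and 11.14, 11.30 and 11.31 in siEGFP arrays 1 to 3, a change of -2.12 (SE 0.11). Its other probe set did not share this difference, with 8.63 in siPCARNEQ and 8.52 in siEGFP, a change of 0.11. RPE, an enzyme of the pentose phosphate pathway, lay at 8.58, 9.11 and 9.08 in siPCARNEQ arrays 1 to 3 and 10.95, 11.05 and 11.08 in siEGFP arrays 1 to 3, a change of -2.11 (SE 0.14), with -1.94 and -1.34 in its other bright probe sets. HIGD1A, a mitochondrial inner membrane protein induced by low oxygen, was the brightest member at 11.58 ± 0.52 in siPCARNEQ and 13.65 ± 0.07 in siEGFP (SD, n = 3), a change of -2.07 (SE 0.23).

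RNA45SN5, a precursor of ribosomal RNA encoded in many near-identical copies, lay at 7.10, 8.26 and 8.32 in siPCARNEQ arrays 1 to 3 and 12.16, 9.87 and 9.92 in siEGFP arrays 1 to 3, a change of -2.76 (SE 0.64). Array 1 was highest of its group in siEGFP and lowest in siPCARNEQ, so the difference was -5.07 in array 1 and -1.60 in arrays 2 and 3. Single copies of this RNA cannot be told apart on the array. Its other probe set had a change of -1.87 and was likewise highest in siEGFP array 1, at 11.13 against 9.02 and 8.94 in siEGFP arrays 2 and 3. How this RNA was primed and labelled was not tested.

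Of the remaining members, SMIM13, a small membrane protein of unknown function, lay at 9.30, 9.61 and 9.74 in siPCARNEQ arrays 1 to 3 and 12.21, 12.33 and 12.34 in siEGFP arrays 1 to 3, a change of -2.74 (SE 0.12). C6orf120 lay at 8.51, 9.23 and 9.33 in siPCARNEQ arrays 1 to 3 and 11.65, 11.73 and 11.78 in siEGFP arrays 1 to 3, a change of -2.70 (SE 0.20). FAM217B lay at 8.55, 8.36 and 8.29 in siPCARNEQ arrays 1 to 3 and 11.35, 10.78 and 10.79 in siEGFP arrays 1 to 3, a change of -2.57 (SE 0.16). The other probe sets of SMIM13 were at -1.28 and -1.19 and that of C6orf120 at -2.51, and FAM217B was 1 of 4 members in which siPCARNEQ array 1 was not the lowest of its group. TMEM19, a membrane protein, lay at 7.86, 8.79 and 8.85 in siPCARNEQ arrays 1 to 3 and 10.53, 10.75 and 10.77 in siEGFP arrays 1 to 3, a change of -2.18 (SE 0.25), with -2.95, -1.44 and -0.12 in its other probe sets. DRC8, a subunit of a dynein regulatory complex of motile cilia, lay at 6.25, 6.91 and 6.91 in siPCARNEQ arrays 1 to 3 and 8.69, 8.89 and 8.92 in siEGFP arrays 1 to 3, a change of -2.15 (SE 0.18), and its 3 other probe sets ran from -1.46 to 0.18. Among the rest, LRRC58 averaged 10.996 ± 0.17 in siPCARNEQ and 13.06 ± 0.02 in siEGFP (SD, n = 3), a change of -2.06 (SE 0.09), and its other probe set was at -2.59. F8, which encodes coagulation factor VIII, averaged 8.54 ± 0.24 in siPCARNEQ and 10.72 ± 0.21 in siEGFP (SD, n = 3), a change of -2.18 (SE 0.15). LMBRD2 averaged 9.32 ± 0.40 in siPCARNEQ and 11.49 ± 0.09 in siEGFP (SD, n = 3), a change of -2.17 (SE 0.19).

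**Figure D2:**
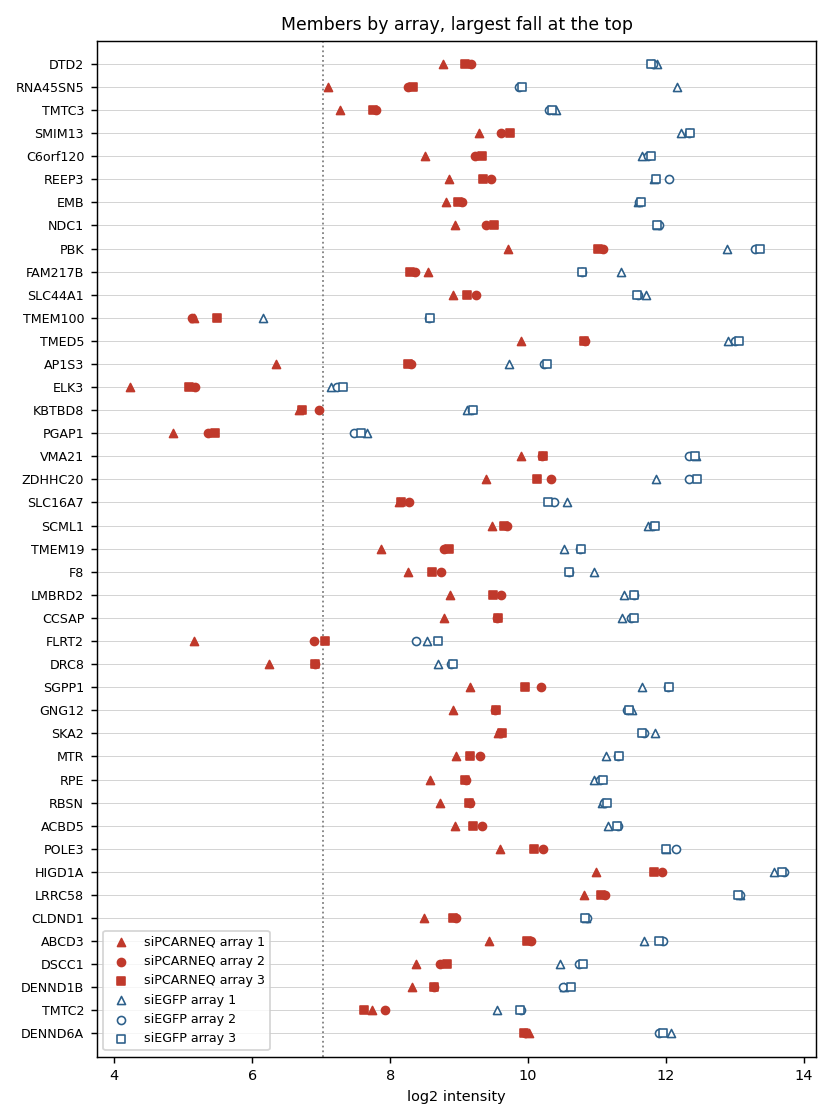
Log2 intensity of the 43 members on each of the 6 arrays, ordered by the size of the difference, with filled symbols for siPCARNEQ, open symbols for siEGFP and a dotted line at the array median of 7.03. In every member the filled symbols lie left of the open ones, as the rule requires, and TMEM100 has the narrowest gap (0.66).

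Most members were well-expressed genes. Their siEGFP level ran from 7.23 to 13.65 with a median of 11.46, above which only 11.97% of all genes lay, and 35 of 43 were at 10.27 or more, the 75th percentile of all genes. A gene near background cannot show a 4-fold lower value, so the rule favours bright genes. In siPCARNEQ the members had a median level of 9.02, against a median of 8.06 over all genes. No member lay below the array median in siEGFP, and 6 did in siPCARNEQ (TMEM100, ELK3, KBTBD8, PGAP1, FLRT2 and DRC8).

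The differences were larger in array 1. Members had a median change of -2.53 in array 1, against -2.06 in the other arrays, and 41 of the 43 members (95.3%) had the larger difference in array 1, against 69.5% of all 2438 genes that passed limma as lower. In 39 members (90.7%) siPCARNEQ array 1 was the lowest siPCARNEQ value, against 63.6% of those genes and 40.8% of all genes. Over all probe sets, the log2 difference between groups had an SD of 0.523 in array 1, 0.389 in array 2 and 0.395 in array 3. The members were chosen on the mean of these same arrays, so the rule favours genes with a large difference in array 1. These shares are therefore no independent trait of the members. At -2 or less were 41 members in array 1, 23 in arrays 2 and 3, and 21 in both. Without siPCARNEQ array 1, whose ACTB difference was 1.84, 23 of the 43 members met the limits, and all 43 were at -1.55 or less. The part of RNA integrity in the size of these differences was not tested.

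**Figure D3:**
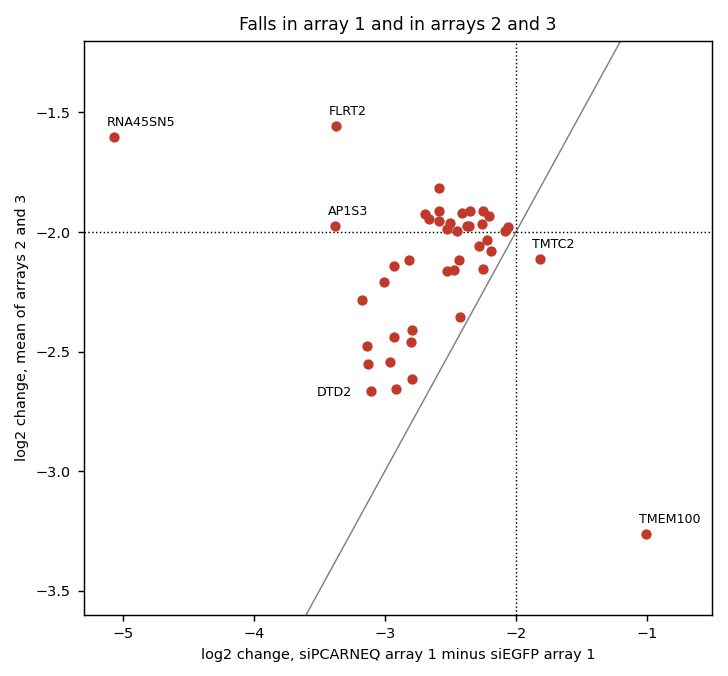
Log2 change of each member in array 1 (x axis) and in the mean of arrays 2 and 3 (y axis), with the line of equal change and dotted lines at -2. Nearly all points, 41 of 43, lie left of the line of equal change, and RNA45SN5 (-5.07 and -1.60) and TMEM100 (-1.01 and -3.26) lie farthest from it.

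Other probe sets of the same genes gave a mixed picture. Of the members, 36 had further single-gene probe sets, 75 in all, with a median change of -1.43. Among the 48 whose mean reached the array median, 39 were at -1 or less, against 7 of the 27 dimmer ones. In 19 of the 36 members every other probe set was at -1 or less, among them DTD2, REEP3, NDC1, SLC16A7, TMTC3 and TMTC2. In 8 members a probe set of at least median level had a change above -1 (SLC44A1, FLRT2, DRC8, SKA2, MTR, RBSN, DSCC1 and DENND1B), and in 9 another probe set had a larger difference than the brightest. These probe sets come from the same arrays and comparison as the rule, so they describe how the probe sets of a gene differ and are no independent check. Where on a transcript each probe set lies was not analysed here.

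**Figure D4:**
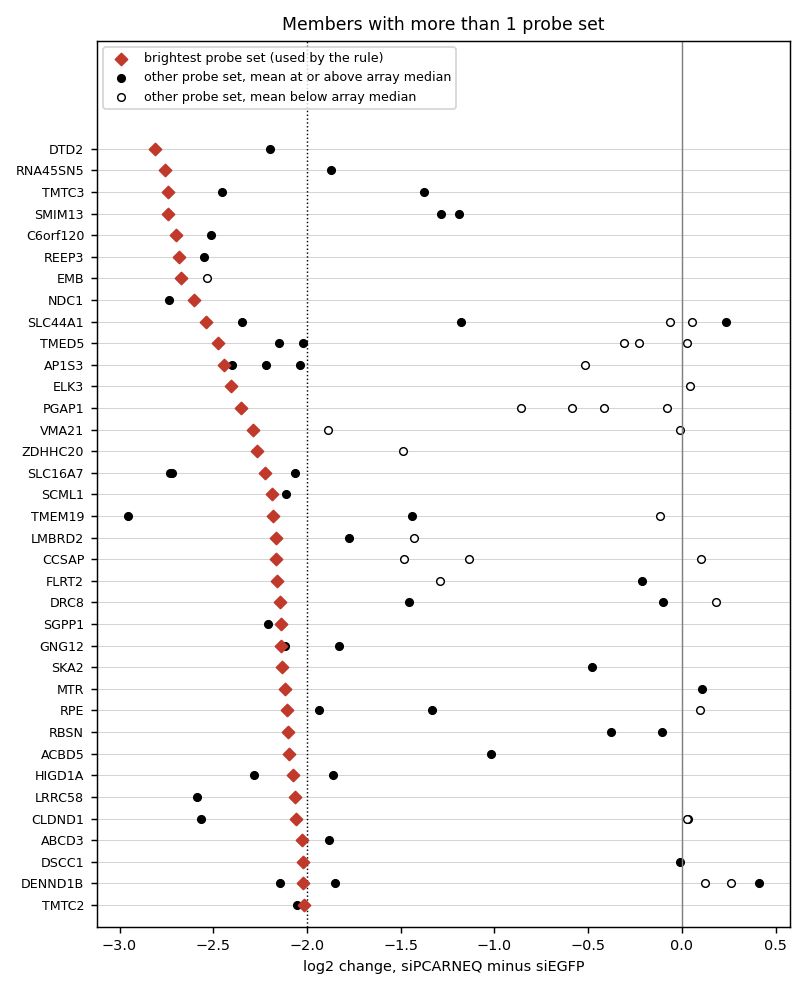
Log2 change of the brightest probe set (diamonds) and of the other single-gene probe sets (circles, filled where the mean over arrays reached the array median) of 36 members, with lines at 0 and -2. In MTR, SKA2, RBSN and DSCC1 the other probe sets, all with means above the array median, lie between -0.48 and 0.11, while the probe sets of SLC16A7 all lie at -2.07 or less.

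Relatives of the members were tested in the fit over all genes (limma, 3 arrays per group, Benjamini-Hochberg adjusted over 19775 genes, threshold 0.05), in which, as given above, 12.3% of genes fell and 15.2% rose. A gene at -2 or less without overlap would be a member or 1 of the 10 genes left out, and the lists below hold none of those 10, so their lower end is set by these choices. The number of genes called lower over all genes also differed between alternative fits, as given further below. List counts under an alternative are not set beside its own share over all genes. Of 7 measured relatives of TMTC2 and TMTC3 in O-mannosylation, 1 fell, 1 rose and 5 did not pass. TMTC1, of the same enzyme family, lay at 8.67, 8.32 and 8.33 in siPCARNEQ arrays 1 to 3 and 6.32, 6.29 and 6.62 in siEGFP arrays 1 to 3 and rose by 2.03 (SE 0.13, limma adjusted p = 9.91e-05). TMTC4 fell with a small change of -0.34 (SE 0.07, limma adjusted p = 0.00841), and did not pass in the mean of all its probe sets (adjusted p = 0.0796 with limma) or with arrays 2 and 3 averaged (0.0962). Without siPCARNEQ array 1 there were 2 relatives that fell, and without siEGFP array 1 there were 2 that rose. TMTC1 lay on the opposite side of the members TMTC2 and TMTC3, with no overlap between its groups.

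Among 14 relatives of REEP3 in ER shaping, 1 fell, 5 rose and 8 did not pass. RTN3, a reticulon that bends ER membranes, lay at 10.28, 10.66 and 10.76 in siPCARNEQ arrays 1 to 3 and 12.02, 12.004 and 11.97 in siEGFP arrays 1 to 3, a change of -1.43 (SE 0.12, limma adjusted p = 0.000277). REEP1 rose by 0.84 (SE 0.10, limma adjusted p = 0.00115) and RTN1, a reticulon of neuroendocrine cells, by 1.36 (SE 0.22, limma adjusted p = 0.00381). RTN3 and REEP3 thus lay on one side and REEP1 and RTN1 on the other, with no overlap between the groups in RTN3. RTN2 rose by 0.55 (SE 0.09, limma adjusted p = 0.00413). With arrays 2 and 3 averaged, 1 of the 14 fell and 3 rose, and without siPCARNEQ array 1 there were 2 that fell and 5 that rose. Of 6 measured relatives of EMB and SLC16A7, 1 fell, 0 rose and 5 did not pass, and at an unadjusted limma p under 0.05 there were 1 lower and 1 higher. The monocarboxylate transporter genes SLC16A1, SLC16A3 and SLC16A6 were listed too but had no single-gene probe set, so nothing is said of them. SLC16A10, a carrier of aromatic amino acids, was the one that fell, with a change of -0.63 (SE 0.07, limma adjusted p = 0.000923), and passed under all 14 alternatives. BSG, the basigin that partners other monocarboxylate transporters, did not pass, with a change of -0.07 (SE 0.09, limma adjusted p = 0.598). Of 8 genes listed with DTD2 for transfer RNA charging, modification and proofreading, 1 fell, 0 rose and 7 did not pass. At an unadjusted limma p under 0.05 there were 3 lower and 0 higher. PARS2, a mitochondrial prolyl-tRNA synthetase, fell by 0.29 (SE 0.07, adjusted p = 0.0245 with limma) and did not pass with arrays 2 and 3 averaged (0.131), without siPCARNEQ array 2 (0.0668) or 3 (0.0505) or without siEGFP array 1 (0.0653) or 3 (0.0994). Of 27 relatives of SMIM13, grouped by name alone, 3 fell, 8 rose and 16 did not pass, with SMIM14 at 1.49 (SE 0.08, limma adjusted p = 5.92e-05), SMIM3 at 2.30 (SE 0.29, limma adjusted p = 0.00124), SMIM10L2A at 0.98 (SE 0.16, limma adjusted p = 0.00409) and SMIM11 at -0.42 (SE 0.09, limma adjusted p = 0.0109). With arrays 2 and 3 averaged, 0 of the 27 fell and 3 rose, SMIM11 not passing there (limma adjusted p = 0.0628). Without siPCARNEQ array 3 or siEGFP array 2 there were 5 that rose, and without siEGFP array 3 there was 1 that fell.

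In 3 further lists, which hold no member, lower calls outnumbered higher ones. In the G1/S and replication list of 30 measured genes 23 fell, 0 rose and 7 did not pass, with a median change of -0.71, and at an unadjusted limma p under 0.05 there were 24 lower and 1 higher. The genes with the smallest p were MCM6, a subunit of the replicative helicase, with a change of -1.79 (SE 0.15, limma adjusted p = 0.000237), RFC3, a clamp loader subunit, with -1.13 (SE 0.09, limma adjusted p = 0.000247), ORC6, of the origin recognition complex, with -0.80 (SE 0.07, limma adjusted p = 0.000308), and CCNE2, an E-type cyclin, with -1.65 (SE 0.16, limma adjusted p = 0.000491). With arrays 2 and 3 averaged as 1 replicate, a fit that called fewer genes lower over all genes, 10 of the 30 fell. Without siEGFP array 2, and likewise without siEGFP array 3, 17 fell, and MCM7, RRM2, TYMS, GINS2, PCNA and E2F8 were among those that did not pass (limma adjusted p of 0.0514 to 0.126). Of 18 genes listed for RNA polymerase I transcription, which makes the RNA45SN5 precursor, 8 fell, 0 rose and 10 did not pass. The list also holds the nucleolar proteins FBL (-0.56) and NCL (-0.52), which were among the 8, and NPM1 (-0.10), which did not pass. At an unadjusted limma p under 0.05 there were 10 lower and 0 higher. Without probe sets whose names end in _s_at or _x_at, 12 of the 18 genes had a value and 4 fell. NCL did not pass there (limma adjusted p = 0.24), and FBL had no value. With arrays 2 and 3 only, a fit that called more genes lower over all genes, 13 of 18 fell. POLR1B, a core subunit, lay at 9.57, 9.69 and 9.61 in siPCARNEQ arrays 1 to 3 and 10.79, 10.76 and 10.73 in siEGFP arrays 1 to 3, a change of -1.14 (SE 0.07, limma adjusted p = 7.28e-05). POLR1E, another subunit, had a change of -0.85 (SE 0.06, limma adjusted p = 0.000159), and RRN3, the factor that recruits the polymerase, of -0.87 (SE 0.07, limma adjusted p = 0.000219). POLR1H, a small subunit, had a change of -0.73 (SE 0.07, limma adjusted p = 0.000408). It was read from an _x_at probe set and did not pass without _s_at and _x_at probe sets (limma adjusted p = 0.696). Of 10 mRNA export genes, 4 fell, 0 rose and 6 did not pass, and at an unadjusted limma p under 0.05 there were 4 lower and 1 higher. NXT1, a cofactor of the export receptor, had a change of -0.64 (SE 0.08, limma adjusted p = 0.000988), and RAE1, an export factor at the nuclear pore, of -0.53 (SE 0.06, limma adjusted p = 0.00103). DDX39A, a helicase of mRNA export, had a change of -0.68 (SE 0.13, limma adjusted p = 0.00848) and the adaptor ALYREF of -0.70 (SE 0.16, limma adjusted p = 0.0159). With arrays 2 and 3 averaged, 2 of the 10 fell, and neither DDX39A (limma adjusted p = 0.0656) nor ALYREF (0.0741) passed, the last also not without siEGFP array 2 (0.0569) or 3 (0.0627). The lists were chosen with the earlier falls of replication and ribosome genes known, so these counts are no independent evidence of direction.

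Further families, complexes and pathways of the members, chosen once the members were known, had shares of calls near the background. In 23 such groups with 141 measured relatives, 20 fell (14.2%) and 26 rose (18.4%), with a median change of 0.04. Both relatives of SKA2 fell, SKA1 with a change of -1.01 (SE 0.14, limma adjusted p = 0.00214) and SKA3 with -1.10 (SE 0.19, limma adjusted p = 0.00453). In the CTF18 clamp loader of DSCC1, of 6 relatives 4 fell, 0 rose and 2 did not pass (4 lower and 1 higher at an unadjusted limma p under 0.05). The 4 that fell were the RFC subunits RFC2, RFC3, RFC4 and RFC5, and the highest change in the list was 0.19. RFC3 is also counted in the G1/S and replication list, so the 2 counts overlap. RFC5 had a change of -1.36 (SE 0.14, limma adjusted p = 0.000615). KBTBD2, a relative of KBTBD8, lay at 8.05, 8.17 and 8.08 in siPCARNEQ arrays 1 to 3 and 9.74, 9.86 and 9.83 in siEGFP arrays 1 to 3, a change of -1.71 (SE 0.07, limma adjusted p = 2.82e-05). Of the 7 relatives of KBTBD8, 2 fell, 1 rose and 4 did not pass, with a median change of -0.10, and KBTBD7 rose by 0.36 (SE 0.09, limma adjusted p = 0.021), 1 of 2 that rose without siPCARNEQ array 1. KBTBD7 did not pass when any other single array was left out (limma adjusted p of 0.0523 to 0.0786). Some relatives of other members also rose. SLC44A4, a relative of the choline transporter SLC44A1, lay at 11.41, 11.01 and 11.02 in siPCARNEQ arrays 1 to 3 and 10.11, 9.73 and 9.63 in siEGFP arrays 1 to 3, a change of 1.32 (SE 0.16, limma adjusted p = 0.001). ACBD3, a Golgi relative of ACBD5, had a change of 0.69 (SE 0.06, limma adjusted p = 0.0004). Of the 22 relatives of ZDHHC20, 3 fell, 6 rose and 13 did not pass, and without siEGFP array 2, as without siEGFP array 3, 1 fell and 4 rose, while 5 fell and 7 rose without siPCARNEQ array 1. ZDHHC14 rose by 1.07 (SE 0.06, limma adjusted p = 7.62e-05) but did not pass without _s_at and _x_at probe sets (adjusted p = 0.198 with limma). ZDHHC2 rose by 0.92 (SE 0.12, limma adjusted p = 0.00163), and ZDHHC21, just outside the limit of the rule, had a change of -1.97 (SE 0.34, limma adjusted p = 0.00497).

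**Figure D5:**
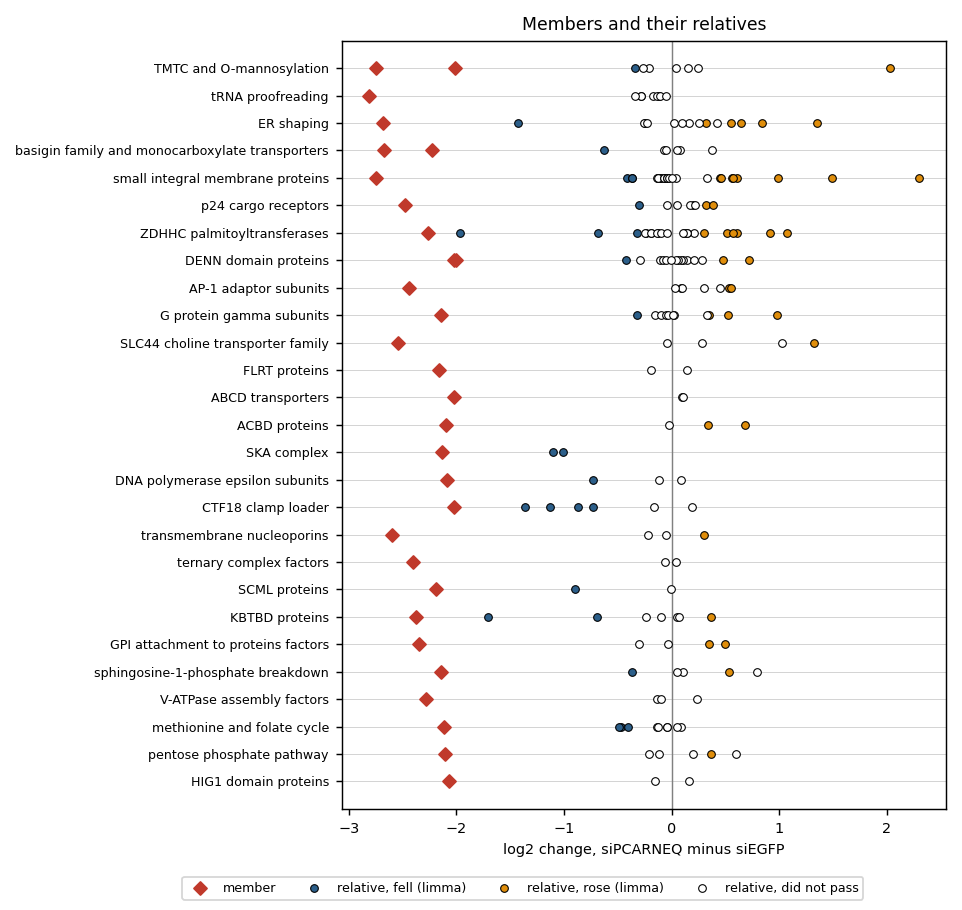
Log2 change of members (diamonds) and of their measured relatives (circles, coloured by the limma call) in 27 lists and families. Relatives scatter around 0 in most rows, from KBTBD2 (-1.71) and ZDHHC21 (-1.97) at the low end to TMTC1 (2.03) and SMIM3 (2.30) at the high end.

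On the chromosomes, members were spread over 14 named chromosomes, with 8 on chromosome 1 (18.6% of members, against 9.74% of genes), 6 on chromosome 3 (14.0% against 5.65%) and 5 on chromosome 12 (11.6% against 5.23%). The RefSeq span of the gene had a median of 45330 bases in members, against 24734 over all genes with a span. These shares and spans are descriptions of 43 genes, without a test. They were not set beside those of bright genes, which the rule favours, so they are not shown to be particular to the members.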

How the data were processed

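Total RNA of LNCaP cells was labelled with biotin and hybridised to 6 arrays, per the labels' protocols. The authors deposited linear intensity values per probe set, summarised by RMA, the robust multi-array average, as the submitters' processing notes state. RMA brings all arrays to 1 common distribution, so differences in total RNA are out of reach. Log2 was taken without an offset. Of 54675 probe sets, 62 controls were left out, and 41091 of the 54613 tested had exactly 1 gene in the platform's annotation, which gave 19775 genes. No genome build of the probes was used here. The number of arrays, 3 per group, limits the precision. The labels speak of a triplicate without naming cultures, so p-values measure only the spread between these arrays.

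The comparison used limma 3.58.1 (lmFit, eBayes) under R 4.3.3, 2-sided, over all genes, with Benjamini-Hochberg adjustment and a threshold of 0.05, after a test on simulated data. An exact permutation test of 3 against 3 arrays cannot go below p = 0.1. Python 3.11.15 with pandas 2.3.3 did the rest. The members and gene lists were chosen with earlier results of these data known, and further families, complexes and pathways were added once the members were known. All members are named, with values on every array for the 20 with the largest difference, those in a fixed list, those with another probe set above -1 and the 3 nearest the limit. In the lists fixed with the design, relatives are named where they passed, up to 4 per list by smallest p. Relatives in the later groups and others named were chosen after their values were seen. Deviations from the group means over the 54613 tested probe sets correlated at 0.47, 0.30 and 0.34 between arrays of the same replicate number. The numbers (1, 2 and 3) were taken from the labels' titles. A fit with the number as a block was run beside the one without. Arrays of numbers 2 and 3 correlated about as highly across numbers (0.37 and 0.24), so only array 1 was set apart by its number. Alternatives left out single arrays, averaged or kept only arrays 2 and 3, and changed the probe sets, the offset and the normalization.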

Additional observations from a re-analysis of the deposited data

How the results depend on the processing

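The replicate number as a block, which pairs the arrays, cannot move the mean differences or the overlap between groups. The same 43 genes thus met the limits by construction. With the block, limma called 3029 genes lower, against 2438 without it, and 47 relatives in the fixed lists lower and 19 higher, against 42 and 14. It moved none of these limma counts by over 1.5 times, while among the 14 relatives in ER shaping it gave 3 that fell and 7 that rose, against 1 and 5. With arrays 2 and 3 only, 23 genes met the limits, all of them among the 43, and with the mean of all probe sets of a gene 25 did, 21 of them among the 43 and 4 others, while the median change of members was -1.95. There were 24 to 52 when single arrays were left out, the lowest without siPCARNEQ array 1. Limma called 1040 genes lower with arrays 2 and 3 averaged and 3715 with arrays 2 and 3 only, and 1658 to 2859 with single arrays left out. With arrays 2 and 3 averaged, 20 relatives fell and 7 rose, and with arrays 2 and 3 only 22 rose. Averaging leaves fewer samples in the fit, and the cause of the other shifts was not tested. Members with a value stayed below 0 under each of the 14 alternatives. Where the same probe set was read, the rule of no overlap fixed this sign beforehand, so it is no independent check. An offset of 32 left 32 members within the limits. Without _s_at and _x_at probe sets 40 members had a value, the smallest difference being that of DSCC1 (-0.01). In the mean of all probe sets, SLC44A1, PGAP1, DRC8, RBSN and DENND1B lay above -1. Levels below the array median of 7.03 are not shown to be above background.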

Other observations

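Some genes lay past the same limit in a probe set that is not their brightest, and so are not among the 43. There were 21 such genes, and those named here were chosen after their values were seen. SGCB, which encodes a sarcoglycan, had changes of -3.19, -3.06 and -2.57 in 3 probe sets and -0.49 in its brightest one. IKBIP had -2.60 and -2.41 in 2 probe sets and -0.12 in its brightest, and CDK1, the kinase that drives entry into mitosis, had -2.57 in 1 and -1.78 in its brightest.

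A further 11 probe sets past the limit carry no single gene name. Of these, 5 are paired with several genes, among them one shared by MYCBP and a MYCBP read-through transcript (-3.19) and 2 shared by the glycosyltransferases ALG10 and ALG10B (-2.34 and -2.25), and 6 have no gene listed. In the opposite direction, 37 genes (0.187%) had a change of 2 or more with all siPCARNEQ values above all siEGFP values.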
